A study of Macaca mulatta with 12 samples.

Results

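Combined estrogen and progesterone replacement was set against placebo in the dorsal raphe nucleus of ovariectomized female rhesus macaques. The members were the 3 arrays titled with both hormones and codes EP1 to EP3, here combined arrays 1 to 3, and the 3 titled as placebo with codes OVX1 to OVX3. These are 6 of 12 arrays, with 1 array for each monkey. All monkeys had lost their ovaries and carried Silastic capsules under the skin for 1 month, holding crystalline estrogen and progesterone in the combined group. The labels give no age, dose or blood hormone level. The other 6 arrays came from 3 monkeys with estrogen alone and 3 with progesterone alone, and the titles of the latter also carry codes EP1 to EP3. They were told apart by their source names P1 to P3 and by the wording of the title.

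The dorsal raphe holds the serotonin neurons that send axons to much of the forebrain. Estrogen and progesterone enter cells and bind nuclear receptors that act as transcription factors. In many tissues estrogen raises the progesterone receptor, so that progesterone given after or with estrogen can reach different genes than either steroid alone. The serotonin neurons of macaques are known to carry receptors for both hormones.

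A human Affymetrix chip read macaque RNA through 12625 probe sets, each a group of short probes, and most were named for 1 gene. After the 67 array controls were set aside, 7535 were tested, those bright enough on the mean of all 12 arrays. A probe set dim in 1 group could thus be tested through the other groups. The value of a probe set is an intensity on a linear scale, without detection calls. A human probe can bind a macaque transcript poorly, so intensities of different genes were not compared. Brightness only decided which probe sets were tested and which one stood for a gene in a list. The dissected block held several cell types, and fewer cells of a type cannot be told apart from less RNA in each cell. Of the serotonin neuron markers, the transporter SLC6A4 read 396 to 476 on the placebo arrays, the transcription factor FEV 111 to 172 and the vesicular transporter SLC18A2 101 to 148. TPH2, which encodes the neuronal serotonin-synthesizing enzyme, and the autoreceptor HTR1A had no probe set named here.

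Combined array 1 stood apart in its controls. Its 28S ribosomal RNA control read 1354.4, against 70 to 90.8 on the other 5 arrays, and its 18S control at the 3′ end read 486.1, against 20 to 92.1. Its GAPDH control read 2.05 times as bright at the 3′ end as at the 5′ end, against 1.05 to 1.46, while the same ratio for actin, 1.11, lay within the 1.09 to 1.54 of the other arrays. Its median absolute log2 difference from combined arrays 2 and 3 was 0.337 and 0.308, whereas those arrays differed from each other by 0.213. Placebo array 1 also lay away from its group, at 0.314 and 0.293 from placebo arrays 2 and 3, which differed by 0.215. Where a log2 difference of the combined group from placebo, or the median of a gene list, is first given, the value without combined array 1 therefore follows it, in parentheses marked "without" or in words.

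With both hormones, 1 of the 3 probe sets of DMAC2L, which encodes a mitochondrial protein associated with ATP synthase, rose, and no other probe set passed the threshold. It read 16.7, 16.8 and 22.6 on the placebo arrays and 143, 89.6 and 129 on the combined arrays. The lowest combined array was thus well above the highest placebo array. The placebo readings were dim: a probe set of the gene EN2 that was too dim to be tested read 33.8, 64.1 and 37.7 with placebo. The DMAC2L probe set was therefore tested only because its hormone arrays were brighter. The log2 difference in limma was 2.18 ± 0.26 (SE, n = 3 against 3, adjusted p = 0.0212). Without combined array 1 it was 2.07 ± 0.30 and no longer passed (limma adjusted p = 0.179). The other probe sets of DMAC2L gave −0.04 ± 0.28 (−0.10 without) and 0.25 ± 0.18 (0.21 without), and their groups overlapped. Without probe sequences it was not checked that the called probe set reads DMAC2L in macaque RNA. The called probe set also did not pass when placebo array 1, 2 or 3 or combined array 3 was left out (limma adjusted p = 0.0966, 0.188, 0.0811 and 0.101), and it passed without combined array 2 (0.0293).

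At the adjusted threshold of 0.05, the comparison called 1 of 7535 probe sets (0.0133%). At an unadjusted limma p under 0.05 there were 255 (3.38%), 136 higher (1.8%) and 119 lower (1.58%). With no effect anywhere, 376.75 are expected. For 672 probe sets (8.92%) the values of the 2 groups were fully separate, 324 higher (4.3%) and 348 lower (4.62%). Without combined array 1 the adjusted count was 0 (0%), and the unadjusted count was 223 (2.96%), 105 higher (1.39%) and 118 lower (1.57%). Then 1448 probe sets (19.2%) had separate groups, over 2 arrays against 3, with 725 higher (9.62%) and 723 lower (9.6%). The 136 higher became 215 without placebo array 3, and the 119 lower became 209 without combined array 2. An exact permutation test of 3 against 3 arrays cannot go below a 2-sided p of 0.1 for a single gene. Full separation is the outcome that gives this 0.1, so with no effect a share of about 0.1 is expected, beside the 8.92% seen. With 2 arrays against 3 a larger share is expected, so the 1448 cannot be read as a gain.

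The genes described next are the 15 higher and 15 lower single-symbol probe sets with the smallest unadjusted p among those whose groups did not overlap. They were chosen for their difference, so apart from DMAC2L their values describe these arrays. Some, such as ADGRE5, ASIP and ALDH6A1, were dim in the placebo group and were tested through brighter hormone arrays. Others, such as PDYN and PCCA, were dim in the combined group. All 30 kept their direction without combined array 1, and all 30 then still had an unadjusted p under 0.05. Because they were chosen for separate groups and a small p, leaving out 1 array could hardly change their direction. The 2 fits also share all other arrays, so this is no independent check. Their log2 differences ran from 0.55 to 2.18 in size, beside a median of 0.162 over all tested probe sets.

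**Figure D1:**
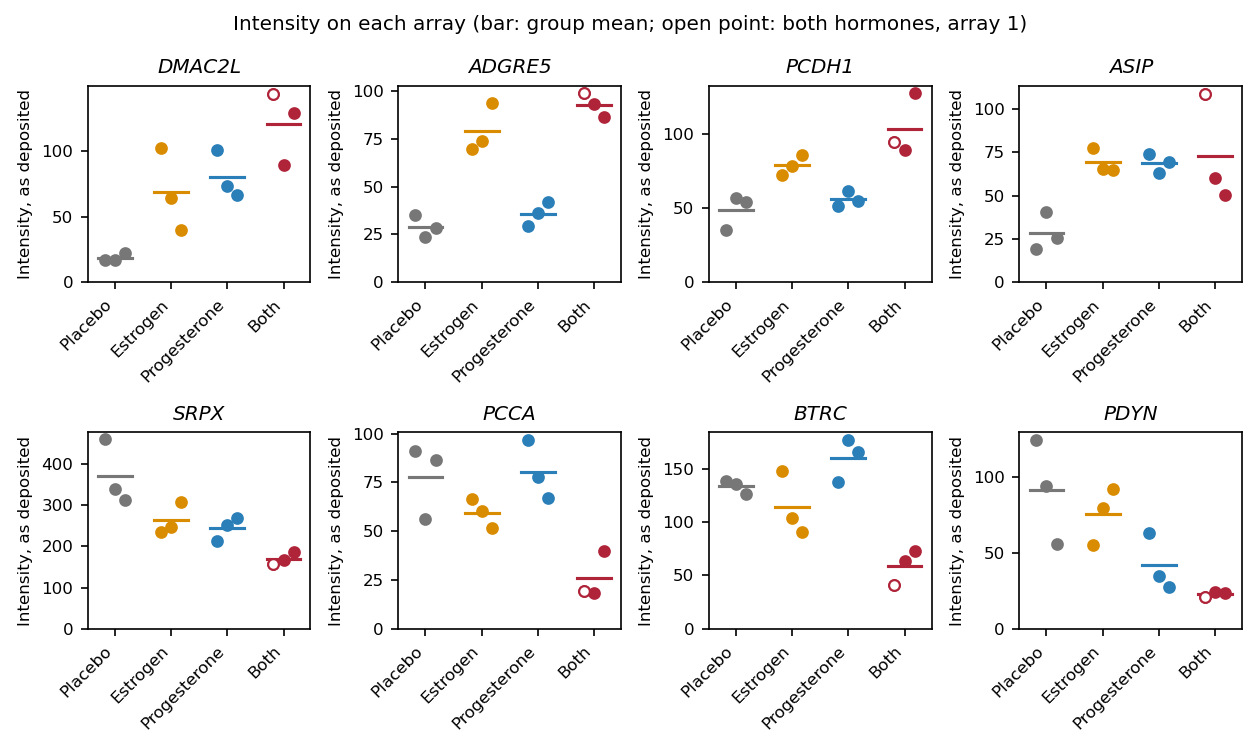
Deposited intensity of 8 probe sets on each of the 12 arrays, for the 4 with the smallest p on the higher side (top) and the lower side (bottom). Points are single arrays, bars are group means and the open point is combined array 1; for each gene the 3 combined arrays lie on 1 side of the 3 placebo arrays, and for SRPX, PCCA, BTRC and PDYN they lie below all 9 other arrays.

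**Figure D2:**
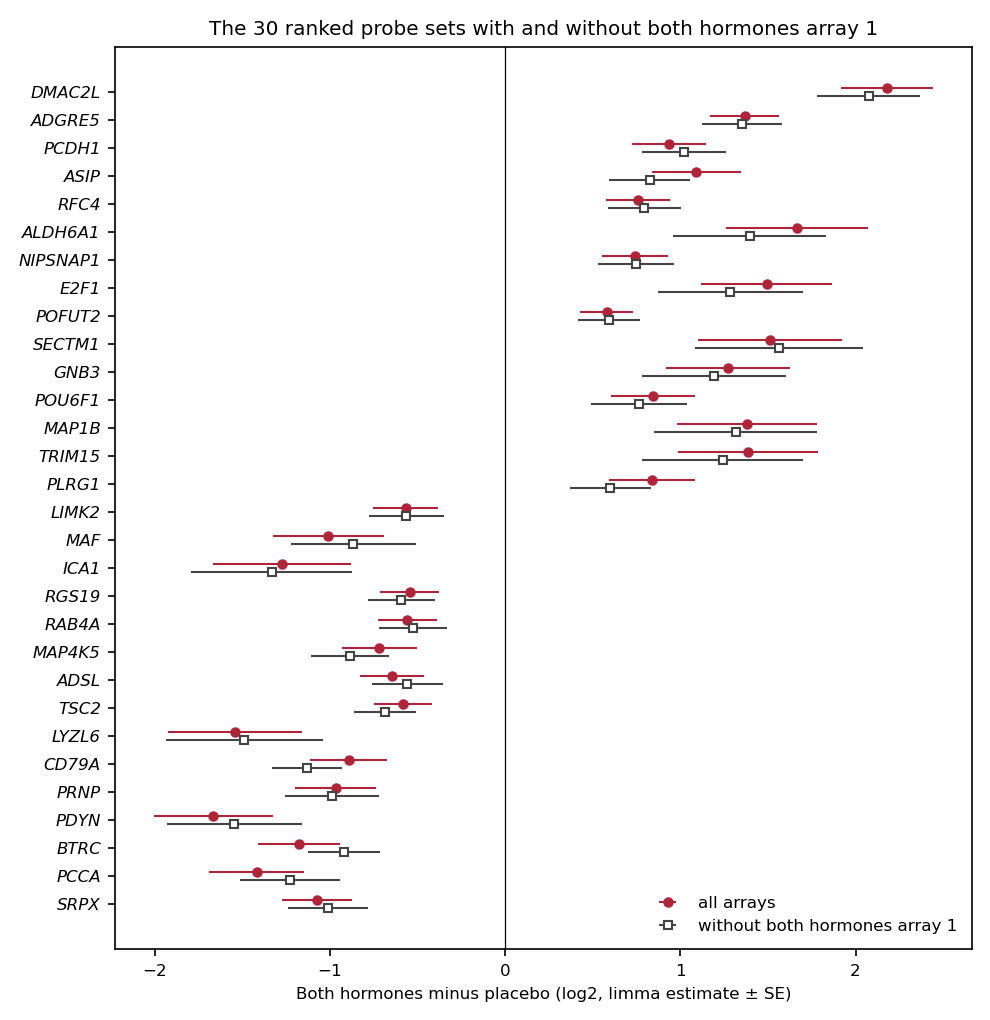
Log2 difference between both hormones and placebo (limma estimate ± SE) for the 30 ranked probe sets, from all arrays (filled circles) and without combined array 1 (open squares). All 30 lie on the same side of 0 in both fits, which their choice for separate groups largely fixed.

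Several of these genes encode mitochondrial proteins, and they did not move one way. PCCA, the alpha subunit of the carboxylase that starts propionate breakdown, read 91.2, 56.2 and 86.3 with placebo and 19.6, 18.1 and 39.7 with both hormones. All 3 combined arrays were below the lowest placebo array, a log2 difference of −1.42 ± 0.27 (limma adjusted p = 0.397) and of −1.23 without combined array 1. ALDH6A1, a dehydrogenase of valine breakdown, read 13.0, 29.5 and 44.2 with placebo and 161, 81.1 and 88.9 with both. Its difference was 1.67 ± 0.41 (limma adjusted p = 0.961), and combined array 1 was the highest array, so that the value was 1.40 without it. NIPSNAP1, a protein of the mitochondrial matrix, read 299.6, 344 and 459.8 against 594, 698 and 549.5, with no overlap. Its difference of 0.74 ± 0.19 was 0.75 without combined array 1 (limma adjusted p = 0.961 and 1).

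Among receptors and surface proteins, ADGRE5 came closest to the threshold after DMAC2L. It encodes CD97, an adhesion G-protein-coupled receptor of leukocytes. It read 35.2, 23.6 and 28.5 with placebo and 98.9, 93.0 and 86.6 with both hormones. The combined arrays were close to each other, and even the lowest was far above every placebo array. The log2 difference was 1.37 ± 0.20 (limma adjusted p = 0.0617) and 1.35 ± 0.23 without combined array 1 (0.382). PCDH1, a protocadherin of cell contacts, read 35.2, 56.7 and 54.5 against 94.6, 89.3 and 128, a difference of 0.94 ± 0.21 (1.02 without). The other PCDH1 probe set gave −0.08 ± 0.20 (0.03 without). SECTM1, a secreted and transmembrane ligand in immune signalling, read 27.7, 40.8 and 46.2 against 121, 122 and 135, a difference of 1.51 ± 0.41 (1.56 without). The 3 combined readings of SECTM1 were nearly the same, including combined array 1. CD79A, a signalling chain of the B-cell receptor, read 110, 150 and 125 against 98.6, 45.2 and 63.3. Combined array 1 was the one nearest to placebo, and without it the difference went from −0.89 ± 0.22 to −1.13 ± 0.20 (limma adjusted p = 0.961 and 0.391).

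PDYN, whose product is cut into dynorphins, the peptides that act on kappa opioid receptors, had the most negative difference of the ranked probe sets. It read 124, 94.3 and 55.8 with placebo and 20.8, 24.4 and 23.5 with both hormones. The placebo arrays spread widely, whereas the combined arrays lay close together and below all of them. The log2 difference was −1.66 ± 0.34 (limma adjusted p = 0.456) and −1.55 ± 0.38 without combined array 1. ASIP, the agouti peptide that blocks melanocortin receptors, read 19.4, 40.8 and 25.4 against 109, 60.2 and 50.4. Combined array 1 was again the highest, and the difference of 1.09 ± 0.25 was 0.82 without it. No second probe set of PDYN or ASIP was present.

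Proteins of the heterotrimeric G-protein cycle were also among the ranked genes. GNB3, a beta subunit, read 28.1, 27.9 and 60.6 with placebo and 122, 97.7 and 94.9 with both hormones, a difference of 1.27 ± 0.35 (1.19 without). RGS19, which speeds the shut-off of inhibitory G-protein alpha subunits, read 148, 164 and 163 against 119, 118 and 91.0, a difference of −0.55 ± 0.17 (−0.59 without). Both sets of groups were separate, and neither passed (limma adjusted p = 0.999 for each).

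On the cytoskeleton and the cell surface matrix, MAP1B, a microtubule protein of growing axons, read 73.7, 123 and 142 with placebo and 336, 307 and 272 with both hormones. Every combined array was well above the highest placebo array, and the difference was 1.38 ± 0.40 (1.32 without). SRPX, a secreted protein with sushi repeats, read 462, 340 and 312 against 156, 168 and 186. Its combined arrays lay close together and below each placebo array, at −1.07 ± 0.20 (−1.01 without combined array 1; limma adjusted p = 0.397 and 1). LIMK2, a kinase that inactivates the actin-severing protein cofilin, read 184, 189 and 161 against 121, 141 and 101, at −0.57 ± 0.19 (−0.56 without).

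Regulators of transcription and of the cell cycle followed. E2F1, a transcription factor of S-phase entry, read 26.1, 58.2 and 34.3 with placebo and 173, 99.0 and 112 with both hormones. Its difference was 1.49 ± 0.38, or 1.28 without combined array 1, which was the highest, and a second E2F1 probe set gave −0.07 ± 0.21 (−0.14 without). RFC4, a subunit of the clamp loader of DNA replication, read 36.7, 52.3 and 60.7 against 90.7, 91.0 and 93.8, at 0.76 ± 0.18 (0.79 without), and its second probe set gave 0.16 ± 0.21 (0.05 without). The transcription factor POU6F1 gave 0.84 ± 0.24 (0.76 without) and the spliceosome protein PLRG1 0.84 ± 0.24 (0.60 without), the latter with combined array 1 at 159 against 112 and 73.0 on the others. A second POU6F1 probe set gave 0.01 ± 0.22 (0.07 without), with overlapping groups. MAF, a basic leucine zipper transcription factor, gave −1.01 ± 0.32 (−0.87 without). None passed limma's threshold (adjusted p from 0.961 to 0.999).

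The remaining ranked genes had varied roles. BTRC, the subunit by which a ubiquitin ligase recognises beta-catenin, read 139, 136 and 127 with placebo and 40.9, 63.6 and 72.7 with both hormones. The placebo arrays differed by few units and all combined arrays were far below them, at −1.18 ± 0.23 (limma adjusted p = 0.456) and −0.92 ± 0.21 without combined array 1. Yet the other BTRC probe sets gave 0.47 ± 0.39 (0.36 without) and −0.62 ± 0.46 (−1.03 without). TSC2, tuberin, the brake on mTOR signalling, read 348, 312 and 324 against 253, 203 and 196. Combined array 1 was its highest, and the difference went from −0.58 ± 0.16 to −0.69 ± 0.18 without it. ADSL, a lyase of purine synthesis, gave −0.64 ± 0.18 (−0.56 without). The recycling-endosome protein RAB4A gave −0.56 ± 0.17 (−0.53 without) and MAP4K5, a kinase upstream of JNK, −0.72 ± 0.21 (−0.89 without). Other RAB4A probe sets gave −0.92 ± 0.71 (−1.35 without), −0.16 ± 0.20 (−0.32 without) and −0.09 ± 0.20 (0.03 without). With all arrays the groups of these RAB4A probe sets overlapped. The ubiquitin ligase TRIM15 gave 1.39 ± 0.40 (1.24 without), and POFUT2, which adds fucose to secreted proteins, 0.58 ± 0.15 (0.59 without). PRNP, the prion protein, read 1317, 747 and 989 against 507, 417 and 600, at −0.97 ± 0.23 (−0.99 without). ICA1, of secretory granules, gave −1.27 ± 0.39 (−1.33 without), with a second probe set at 0.33 ± 0.25 (0.23 without). LYZL6, a lysozyme-like protein of sperm, gave −1.54 ± 0.38 (−1.49 without), with a second probe set at 0.44 ± 0.26 (0.28 without). For LYZL6 the second probe set had separate groups in the other direction.

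Of the 30 ranked probe sets, 12 belonged to genes with another tested probe set. Those genes had 18 others, of which 11 had the same direction and 7 the opposite one. Among all 934 genes with at least 2 tested probe sets, 5 had 2 or more at an unadjusted p under 0.05 in the same direction. These were MAP1B, GNB3, GLUD1, CTNNA2 and MAF. They were chosen for this agreement, and the number expected with no effect was not worked out.

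The second MAP1B probe set read 354.0, 954 and 757 with placebo and 1321, 1026 and 1849 with both hormones, at 1.10 ± 0.40 and 1.10 without combined array 1. Placebo array 1 was the lowest on both probe sets, and without it the second gave 0.69. The remaining MAP1B probe set gave −0.09 ± 0.17 (−0.11 without), with overlapping groups. For GNB3 the second probe set read 203, 208 and 222 against 367, 244 and 298, at 0.48 ± 0.17 (0.33 without), and the third gave 0.55 ± 0.52 (0.63 without). All 3 GNB3 values had the same sign.

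GLUD1, glutamate dehydrogenase, which links glutamate to the citric acid cycle, read 1846, 952 and 961 with placebo and 626, 686 and 814 with both hormones on the first probe set. The second read 1018, 974 and 844 against 537, 450 and 743. Both had separate groups, at −0.71 ± 0.25 and −0.73 ± 0.27, and at −0.65 and −0.71 without combined array 1. Without placebo array 1, which was high, the first gave −0.44. GLUD2 is a near copy of GLUD1, and probes may not keep the copies apart. CTNNA2, the neuronal alpha-catenin that ties cadherins to actin, read 760.5, 727 and 675 against 549.6, 530.0 and 419 on the first probe set, at −0.51 ± 0.17. On the second it read 212, 279.8 and 283 against 152, 218 and 129.7, where placebo array 1 as deposited lay below combined array 2, at −0.64 ± 0.28. The CTNNA2 values were −0.60 and −0.59 without combined array 1. The second MAF probe set read 345, 413 and 349 against 278, 299 and 276, at −0.37 ± 0.16 (−0.36 without). None of these probe sets passed limma's adjusted threshold (adjusted p = 0.999 for each).

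**Figure D3:**
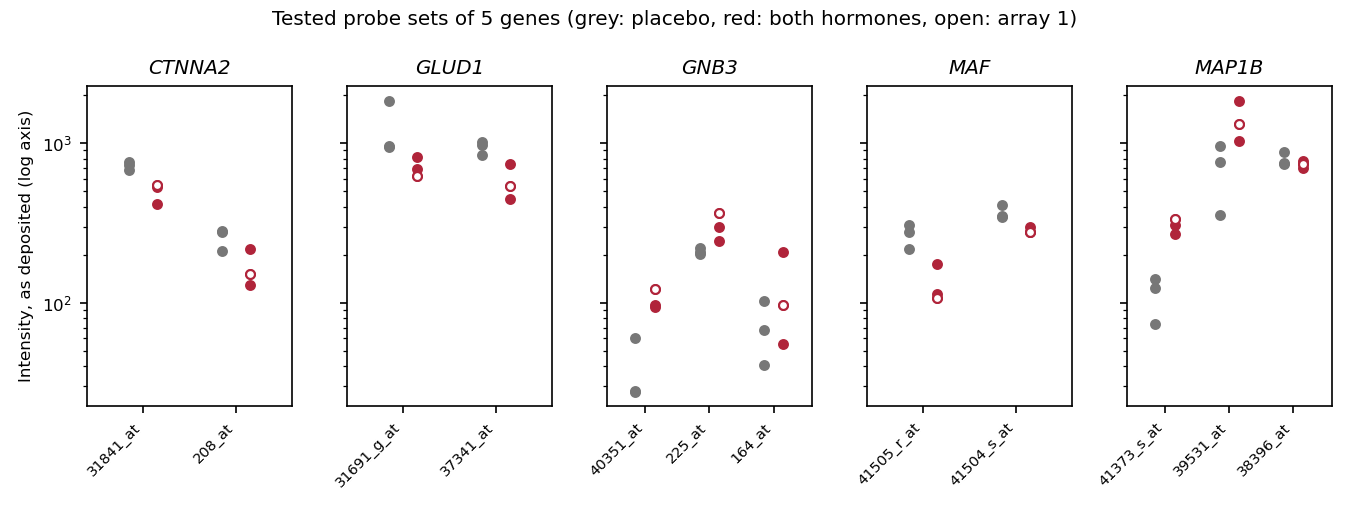
Deposited intensity (log axis) on the placebo arrays (grey) and the combined arrays (red, open for array 1) for each tested probe set of CTNNA2, GLUD1, GNB3, MAF and MAP1B. For each gene, 2 probe sets differ in the same direction, which was the rule for choosing these genes. The remaining probe sets of GNB3 and MAP1B overlap between the groups.

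Without combined array 1, 2 genes outside the 30 entered the leading 5 of a direction. KCND1, a channel of the fast inactivating potassium current, read 34.4, 46.9 and 41.9 with placebo and 43.0, 164 and 113 with both hormones. Combined array 1 read like placebo, and leaving it out moved the difference from 0.98 ± 0.42 to 1.54 ± 0.32 (limma adjusted p = 0.999 and 0.896). PLAU, the urokinase plasminogen activator, read 108, 111 and 92.3 against 107, 42.2 and 49.1. Here too combined array 1 alone lay within the placebo range, and the difference went from −0.70 ± 0.26 to −1.04 ± 0.20 (limma adjusted p = 0.999 and 0.575).

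The groups with 1 hormone show how the combined readings stand beside each steroid alone. Comparisons with placebo share the placebo arrays, so only each gene's own values are set side by side. The 3 combined arrays lay outside all 9 other arrays for 47 of 7535 probe sets (0.624%), 21 higher (0.279%) and 26 lower (0.345%). Without combined array 1 they were 203 (2.69%), 110 higher (1.46%) and 93 lower (1.23%). Some probe sets would lie outside with no effect, and more of them with fewer combined arrays. Neither count is therefore read as genes particular to the combination. The ranked probe sets held 10 of the 47: E2F1 and POFUT2 above, and SRPX, PCCA, BTRC, PDYN, LYZL6, ADSL, RAB4A and RGS19 below. The 30 were selected as separate from placebo, so this count is a description. Against each single hormone, limma's adjusted count was 0 (0%) for estrogen and 1 (0.0133%) for progesterone. That 1 was LPCAT4, a phospholipid acyltransferase outside the ranked genes, named after its value was seen (2.31 ± 0.28, limma adjusted p = 0.0259, and 2.63 ± 0.25 with 0.00441 without combined array 1). At an unadjusted p under 0.05 there were 216 (2.87%) and 581 (7.71%). With combined array 1 left out the adjusted counts were again 0 and 1, and the unadjusted ones 241 (3.2%) and 510 (6.77%). Estrogen array 1 shared the high 28S control of combined array 1, at 841.4. The test of the interaction, whether the combined difference departs from the sum of the single ones, called 0 (0%) in limma, with 376 (4.99%) at an unadjusted p under 0.05, and 0 and 354 (4.7%) without combined array 1.

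The readings of E2F1, POFUT2 and ADSL with each single hormone overlapped those of placebo. As deposited, so did those of PCCA, BTRC and LYZL6, and of PDYN, which is taken up below. E2F1 read 28.4, 47.7 and 65.7 with estrogen and 65.8, 32.6 and 32.5 with progesterone. Both ranges overlapped that of placebo and lay below the lowest combined reading of 99.0. The log2 difference of both hormones was 1.34 ± 0.38 from estrogen and 1.42 ± 0.38 from progesterone (limma adjusted p = 1 and 0.36), and 1.13 and 1.21 without combined array 1. Without estrogen array 1 and combined array 1 these were 0.76 and 1.22. The second E2F1 probe set gave −0.11 ± 0.21 from estrogen and −0.02 ± 0.21 from progesterone with all arrays. POFUT2 read 105 to 111 with estrogen and 101 to 130 with progesterone, beside 103 to 111 with placebo and 157 to 178 with both. ADSL read 133 to 174 with estrogen and 119 to 168 with progesterone, beside 116 to 166 with placebo and 82.4 to 100.2 with both. PCCA and BTRC had the lowest adjusted p against progesterone of these 10 probe sets, at −1.47 ± 0.27 and −1.42 ± 0.23 (limma adjusted p = 0.127 and 0.0943). With combined array 1 left out they were −1.28 and −1.16 (limma adjusted p = 0.403 and 0.158). Their interaction values were −1.11 ± 0.38 and −1.17 ± 0.33 (limma adjusted p = 0.923 and 0.914), and −0.92 and −0.91 without. The other BTRC probe sets did not share these values. Against progesterone they gave 1.06 ± 0.39 and −0.08 ± 0.46 (limma adjusted p = 0.527 and 0.975), with interaction values of 0.82 ± 0.56 and 0.75 ± 0.64.

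Some genes had different values with estrogen and with progesterone. ADGRE5 read 69.9, 73.7 and 93.8 with estrogen and 29.2, 36.3 and 41.9 with progesterone. Estrogen arrays overlapped the combined range and progesterone arrays the placebo range; the combined group differed from progesterone by 1.19 ± 0.20 (limma adjusted p = 0.0943), and by 1.18 without combined array 1 (limma adjusted p = 0.235). PDYN read 55.0, 79.6 and 92.4 with estrogen and 63.3, 35.0 and 27.3 with progesterone. The progesterone readings lay above the combined ones, and 1 of them was within the placebo range. The combined group differed from estrogen by −1.41 and from progesterone by −0.63 (limma adjusted p = 1 and 0.682), and by −1.29 and −0.51 without combined array 1. LIMK2, ICA1 and the first CTNNA2 probe set gave −0.50, −1.09 and −0.70 with progesterone, beside −0.57, −1.27 and −0.51 with both and −0.05, −0.22 and −0.07 with estrogen. Whether the 2 single hormones differ was not tested for these genes.

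In a further set each hormone group differed from placebo in the same direction, by values set side by side here. ASIP gave 1.09 over placebo in each hormone group, and NIPSNAP1 0.81 with estrogen, 0.67 with progesterone and 0.74 combined. RFC4 gave 0.60, 0.65 and 0.76, and PRNP −0.74, −0.69 and −0.97. DMAC2L read 102, 64.0 and 39.6 with estrogen and 101, 73.1 and 66.7 with progesterone, all above the placebo maximum of 22.6. The combined group was at 0.78 ± 0.26 over estrogen and 0.50 ± 0.26 over progesterone (limma adjusted p = 1 and 0.672), and at 0.67 and 0.39 without combined array 1. Its overlap with estrogen rests on estrogen array 1, the highest, and without that array and combined array 1 the difference from estrogen was 0.92 ± 0.27.

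**Figure D4:**
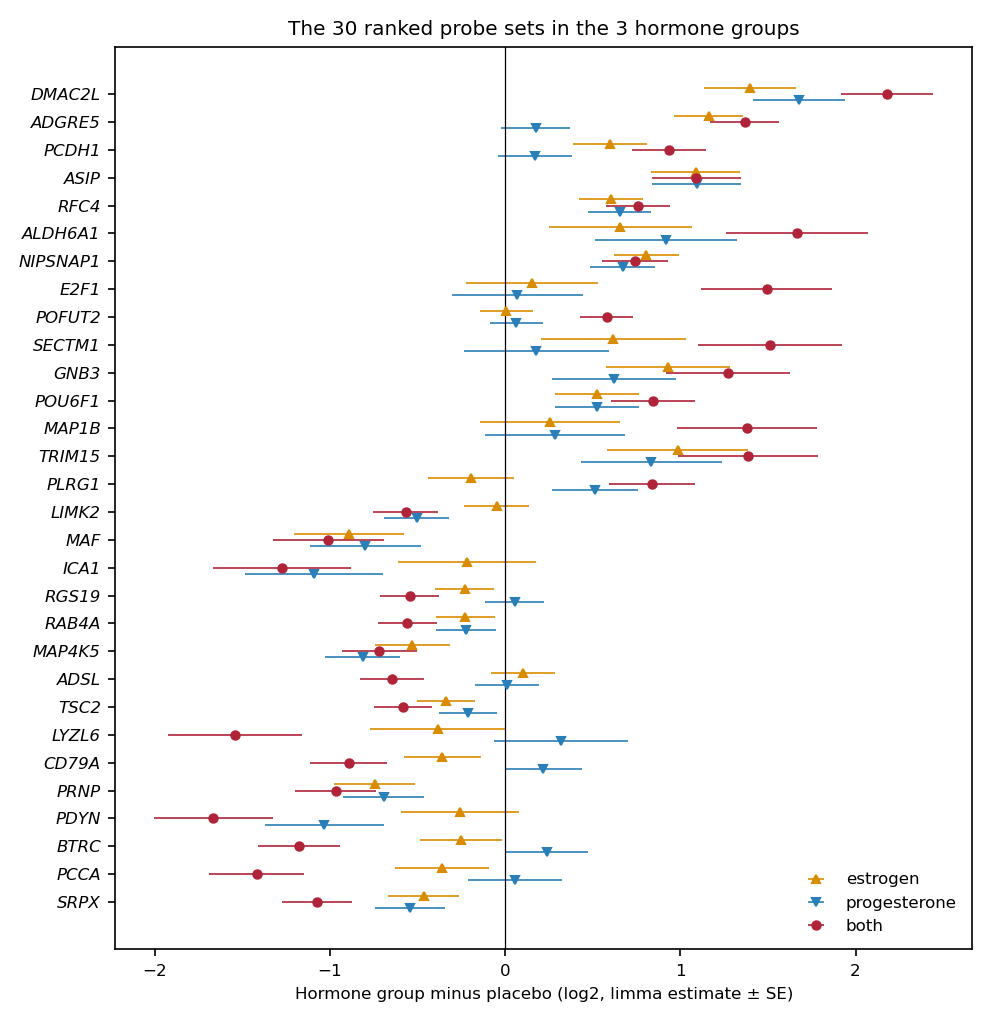
Log2 difference from placebo (limma estimate ± SE) with estrogen (triangles up), progesterone (triangles down) and both hormones (circles) for the 30 ranked probe sets, which were chosen on the combined group. For E2F1 and POFUT2 both single hormones lie near 0, and for ASIP and NIPSNAP1 the 3 groups lie together.

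Gene lists were read through the brightest probe set of each gene, which gave 5499 genes. Over all of them 2676 were higher and 2823 lower with both hormones, with a median log2 difference of −0.0066. An unadjusted p under 0.05 was reached by 3.26% and groups were separate for 9.31%. No gene of any of the 45 lists passed the adjusted threshold at that probe set, with or without combined array 1.

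Of the genes for serotonin synthesis, transport and breakdown, 10 were tested, 5 higher and 5 lower, with a median of −0.035 (−0.022 without) and none at an unadjusted p under 0.05 in either fit. SLC6A4 read 476, 432 and 396 with placebo and 456, 495 and 220 with both hormones. Combined array 3 alone was low, and the difference was −0.20 ± 0.26 (−0.36 without). The decarboxylase DDC gave −0.26 ± 0.25 (−0.31 without) and the vesicular transporter SLC18A2 −0.18 ± 0.28 (−0.24 without). GCH1, which starts synthesis of the cofactor of tryptophan hydroxylase, gave −0.19 ± 0.25 (−0.18 without), and the oxidases MAOA 0.10 ± 0.26 (0.18 without) and MAOB −0.12 ± 0.25 (−0.10 without). A second tested MAOA probe set went the other way, at 96.0, 141 and 117 with placebo and 87.55, 84.0 and 126 with both hormones. SPR, which completes the cofactor, gave 0.73 ± 0.72 (0.92 without), with placebo array 1 at 196 and the other placebo arrays at 38.8 and 30.1. With all arrays each of these differences was about as large as its SE or smaller, and all groups overlapped.

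Of 8 serotonin receptors tested, 3 were higher and 5 lower, with a median of −0.028 (−0.035 without). HTR7 read 287, 621 and 261 with placebo and 256, 225 and 232 with both hormones, at −0.59 ± 0.30 (−0.65 without). Its groups were separate, with placebo array 2 far above the rest. HTR3A read 95.9, 66.8 and 97.5 against 24.2, 104 and 45.1, at −0.77 ± 0.40 (−0.29 without). The other 6 receptors lay between −0.19 (HTR2C) and 0.25 (HTR6), and between −0.12 (HTR2C) and 0.29 (HTR1E) without combined array 1. The 7 transcription factors of serotonin neurons had a median of 0.019, and of −0.119 without combined array 1. Of these POU3F2 had separate groups at −0.25 ± 0.16 (−0.22 without), and FEV gave 0.02 ± 0.35 (−0.23 without).

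Of 7 nuclear steroid receptors tested, 3 were higher and 4 lower, with a median of −0.006 (−0.030 without). ESR1, estrogen receptor alpha, read 82.3, 322 and 273 with placebo and 309, 230 and 219 with both hormones on its brightest probe set, where placebo array 1 was low. That gave 0.33 ± 0.40 (0.18 without), or −0.22 with placebo array 1 left out, while a second tested probe set gave −0.04 ± 0.26 (−0.23 without). ESR2, estrogen receptor beta, gave 0.12 ± 0.19 (0.08 without) and 0.29 ± 0.39 (0.15 without). The progesterone receptor PGR had 1 probe set, which read between 0.63 and 10.5 with placebo and 1.05 to 6.87 with both hormones and was too dim to be tested. NR3C1, the glucocorticoid receptor, read 617, 586 and 601 against 480, 559 and 480. Its groups were separate by a small gap at −0.24 ± 0.15 (−0.21 without). Its other probe sets gave −0.30 ± 0.26 (−0.36 without) and −0.20 ± 0.19 (−0.31 without). ESRRG, an estrogen-related orphan receptor, also had separate groups at −0.33 ± 0.29 (−0.35 without). Of 15 receptor coactivators and corepressors 5 were higher and 10 lower, with a median of −0.112 (−0.141 without). FKBP4, a chaperone partner of steroid receptors, gave 0.40 ± 0.19, or 0.21 without combined array 1, and the coactivator NCOA2 −0.37 ± 0.21 (−0.33 without). Genes known to respond to these hormones in the reproductive tract, 18 tested, were 7 higher and 11 lower, with a median of −0.040, and 9 and 9 with 0.003 without combined array 1.

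In the opioid list PDYN was the only 1 of 6 genes at an unadjusted p under 0.05, in both fits, and the list median was −0.113 (−0.179 without). The enkephalin precursor PENK gave 0.01 ± 0.26 (0.23 without). The nociceptin precursor PNOC gave −0.16 ± 0.62 (0.50 without), with combined array 1 at 82.8 beside 329.8 and 332 on the other combined arrays. The mu receptor OPRM1 gave −0.18 ± 0.33 (−0.20 without) on its tested probe set. A second OPRM1 probe set, left out by the filter and named after its values were seen, read 12.3, 20.3 and 9.92 against 43.4, 41.7 and 36.0. The kappa receptor OPRK1 and the delta receptor OPRD1 were too dim to be tested.

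Among transmitter systems, 13 GABA genes were 9 higher and 4 lower with a median of 0.095, and 12 and 1 with 0.122 without combined array 1. The 17 glutamate genes were 8 higher and 9 lower with a median of −0.002, and 10 and 7 with 0.053 without. With all arrays the metabotropic receptors GRM5 and GRM3 were at an unadjusted p under 0.05, and without combined array 1 neither they nor any other glutamate gene were. GRM5 read 431, 439 and 359 with placebo and 268, 285 and 327 with both hormones, separate at −0.46 ± 0.19 (−0.40 without), and GRM3 gave −0.51 ± 0.23 (−0.36 without) with overlapping groups. The astrocyte glutamate transporter SLC1A2 gave 1.39 ± 0.76 (1.32 without) and the receptor subunit GRIA2 0.54 ± 0.34 (0.53 without), both with separate groups. For SLC1A2, placebo array 1 read 293 where placebo arrays 2 and 3 read 3990.5 and 4244, and the combined arrays read 4118 to 5208. For GRIA2 it read 804 beside 1951 and 2039. Without placebo array 1 the differences were 0.12 and 0.08.

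The lists described next hold the ranked genes TSC2, PCCA, ALDH6A1 and ADSL, so their counts and medians partly restate that choice. With all arrays, 15.8% of the mTOR list, 12.5% of propionate and branched-chain breakdown and 16.7% of purine synthesis were at an unadjusted p under 0.05. The share over all genes was 3.26%, and each list share rests on few genes. Among other lists that hold ranked genes, replication factors were at 4% and melanocortin signalling at 16.7%. In the mTOR list, with 19 genes tested, TSC2, EIF4EBP2, a repressor of translation that mTOR inactivates, and RPS6KB1, a kinase that mTOR activates, were at an unadjusted p under 0.05 with all arrays. EIF4EBP2 was no longer so without combined array 1, while TSC2 and RPS6KB1 still were. EIF4EBP2 read 90.4, 106 and 79.1 with placebo and 55.8, 77.7 and 49.5 with both hormones, at −0.59 ± 0.23 (−0.50 without). RPS6KB1 read 350.1, 450.4 and 386 against 472, 564 and 572, at 0.44 ± 0.17 (0.52 without). All 3 had separate groups, and the list median was 0.012 (−0.041 without). In propionate and branched-chain breakdown, 16 genes were 8 higher and 8 lower with a median of −0.055, and 5 and 11 with −0.079 without combined array 1. PCCA and ALDH6A1 were at an unadjusted p under 0.05 in opposite directions in both fits. Purine synthesis, 12 genes, was 2 higher and 10 lower with a median of −0.170, and 5 higher and 7 lower at −0.052 without combined array 1. Its member PRPS1, which makes the ribose donor, gave 0.80 ± 0.34 (0.84 without), against the direction of ADSL.

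The 20 antioxidant enzymes were 6 higher and 14 lower, with a median of −0.062 and of −0.084 without combined array 1. The microsomal glutathione transferases MGST2 and MGST3 and the cytosolic GSTT1 had separate groups. MGST2 read 356, 396 and 426 with placebo and 293, 177 and 183 with both hormones, at −0.85 ± 0.28, and at −1.08 without combined array 1. MGST3 gave −0.46 ± 0.21 (−0.57 without). The 12 genes of ATP synthase and its coupling factor were 6 higher and 6 lower with a median of −0.001 (−0.036 without), and the 40 of respiratory complexes were 20 and 20 with −0.011 (0.018 without). In the list of CD97 and its partners, which holds the ranked ADGRE5 itself, 7 of 9 genes were higher, with a median of 0.185 (0.125 without). There ADGRL1, a related adhesion receptor, read 704, 883 and 782 against 862, 982 and 1224, at 0.38 ± 0.18 (0.48 without).

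Further lists shifted without combined array 1. The 46 cytosolic ribosomal protein genes were 33 higher and 13 lower with a median of 0.074, and 22 higher and 24 lower with −0.025 without that array. Their median was 0.184 on combined array 1, 0.009 on array 2 and −0.002 on array 3. The 18 genes of synaptic vesicle release were 5 higher and 13 lower with it, and 12 higher and 6 lower without it. The 10 catecholamine genes turned from 7 higher and 3 lower to 2 higher and 8 lower, with a median of 0.015 and of −0.069 without that array. Their medians on combined arrays 1, 2 and 3 were 0.103, −0.072 and 0.064, so array 1 did not stand apart there. The part of the ribosomal RNA signal in these shifts was not tested.

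**Figure D5:**
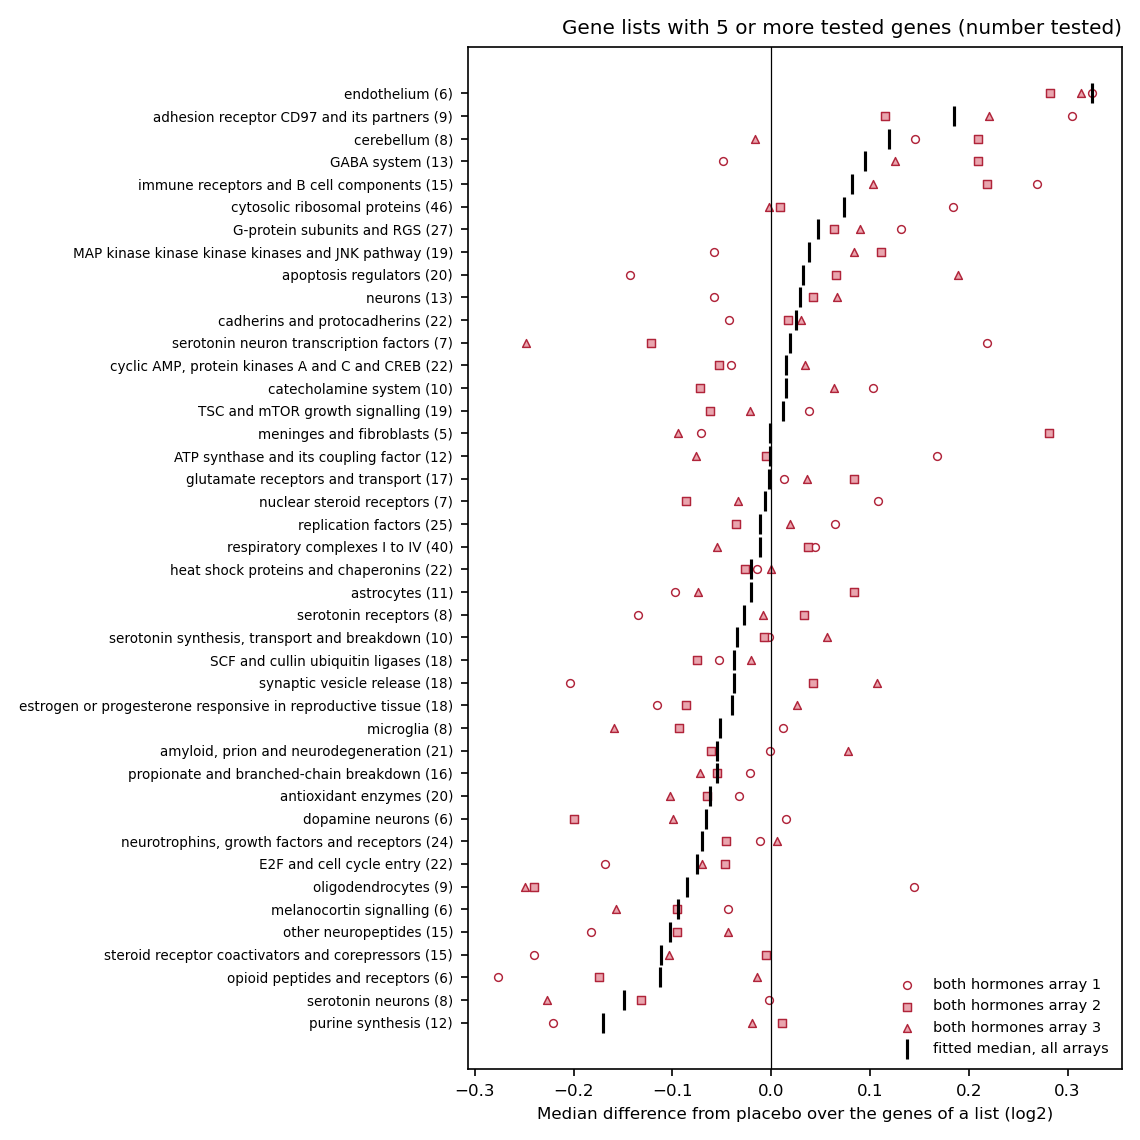
Median log2 difference from placebo over the genes of each list with at least 5 tested genes (number in brackets), for the fit of all arrays (bars) and for each combined array (open circles for array 1, squares for array 2, triangles for array 3). Array 1 lies apart from the other 2 for ribosomal proteins, synaptic vesicle release and oligodendrocytes, and the 3 arrays lie together for endothelium.

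Markers of cell types were read the same way, and none passed limma's threshold. Neuron markers, 13 genes, had a median of 0.029 (0.044 without), with summed intensity of 40513 to 43115 in placebo and 41080 to 45603 in combined arrays. Serotonin neuron markers were 2 higher and 6 lower of 8, with a median of −0.149, and 0 and 8 with −0.206 without combined array 1. Their sums of 1335 to 1669 and 1186 to 1603 overlapped. Oligodendrocyte markers were 2 higher and 7 lower of 9, with a median of −0.085, and 0 and 9 with −0.252 without combined array 1. The sums were 18443 to 21682 and 17358 to 22249, and UGT8 at −0.52 ± 0.27 (−0.51 without) and SOX10 at −0.36 ± 0.26 (−0.27 without) had separate groups. Endothelial markers were 4 higher and 2 lower of 6, with a median of 0.325 and of 0.327 without combined array 1. FLT1 at 0.54 ± 0.31 (0.56 without), ENG at 0.49 ± 0.36 (0.47 without) and PECAM1 at 0.21 (0.23 without) had separate groups. CLDN5 and TEK gave −0.32 and −0.35 (−0.11 and −0.16 without), and the sums of 812 to 1005 and 857 to 1000 overlapped. The 11 astrocyte genes had a median of −0.020 (−0.003 without), with sums of 13354 to 14860 and 15282 to 17068. Those sums were separate, and SLC1A2, low on placebo array 1, is part of them. Microglia markers, 8 genes, had a median of −0.052 (−0.126 without), and the 3 blood genes one of 0.061, or −0.096 without combined array 1. The dissection may take in neighbouring tissue, and the 6 dopamine neuron, 8 cerebellar, 5 meningeal and 4 ependymal markers had medians of −0.066, 0.119, −0.001 and −0.099 (−0.106, 0.147, 0.065 and 0.240 without). The part of cell makeup in the gene differences was not tested.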

How the data were processed

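Per the labels' protocols, dorsal raphe RNA was isolated in Trizol, cleaned on Qiagen columns and labelled with biotin through an Enzo kit. The deposited values are intensities on a linear scale, scaled by the authors to a trimmed mean of 200.1 on each of the 12 arrays (2% trimmed from each end, found from the values). How probes were summarised, and by what software, is not given in the sources used here. Control probe sets (67) stayed out of tests.

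Intensities were converted to log2(intensity + 8.27), the offset being the pooled 10th percentile, which makes differences of dim probe sets smaller, and quantile normalized. The dimmest 40% (5023, ranked on the mean of all arrays) were not tested. Group means of all 4 groups were fitted with limma 3.58.1 in R 4.3.3 (lmFit, eBayes), 2-sided, with Benjamini-Hochberg adjustment over 7535 probe sets; adjusted p-values in the text are from this fit. Without combined array 1, normalization and fit were repeated on 11 arrays. The fit was also run on simulated data with large added changes and independent noise. That run does not bear on most of the differences reported here, which are smaller. Symbols came from the platform's annotation: 10943 probe sets had 1, 545 several and 1070 none; only the first kind was named. Named were the called probe sets, the 15 per direction of smallest p with separate groups, the leading 5 per direction without combined array 1, genes with at least 2 probe sets at p under 0.05, up to 4 members of a list, and the serotonin, opioid and steroid receptor genes. Members and lists were chosen with earlier results of these data known. Intensities of single arrays are as deposited; overlap was judged after normalization. Each array is 1 monkey, and 3 per group limit the precision. Same-numbered estrogen and combined arrays deviated together (correlations of 0.407, 0.296 and 0.133, from the data alone); with the block no named probe set passed against estrogen. Normalization, filter, offset, fit, array weights, a replicate block and left-out arrays were varied. The count outside all other arrays, and the single-hormone and interaction contrasts without combined array 1, were added after the data were seen.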

Additional observations from a re-analysis of the deposited data

Results flagged for a closer look

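The ribosomal RNA controls, which entered no test, were high on combined array 1. The 28S control read 1354.4 there, where the highest placebo array read 90.8. The 18S control at the 3′ end read 486.1, where the highest placebo array read 92.1.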

How the results depend on the processing

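The adjusted count of 1 probe set was 2 (DMAC2L and ADGRE5) on values as deposited and with array weights. It was 0 without the filter, with the lowest 60% left out (DMAC2L was then not tested), with the 6 compared arrays alone, and without estrogen array 1 and combined array 1, and 0 to 1 with any 1 of the 6 arrays left out. Of these settings, 16 gave DMAC2L a limma adjusted p, from 0.0043 to 0.188, and 8 called it; ADGRE5 ranged from 0.00835 to 0.419. The 255 at an unadjusted p under 0.05 became 454 without the filter (235 higher, 219 lower, of 12558), 154 with the stricter filter (82 and 72, of 5023) and 453 with array weights (212 and 241). With 1 array left out they were 217 to 370, with 98 to 215 higher and 94 to 209 lower. The 672 with separate groups became 1090 without the filter, 433 with the stricter one, 1448 without both arrays high in ribosomal RNA and 1183 to 1637 with 1 array left out. The 47 outside all other arrays became 79, 24, 290.0 and 55 to 260. The cause was not tested; fewer probe sets or fewer arrays are part of several settings. None of the 39 probe sets named by rank or by agreement reversed against placebo in any of these settings. They were chosen on this same difference, and the ranked ones for separate groups, so a reversal was hardly possible. Same-numbered placebo and combined arrays correlated at 0.105, 0.088 and 0.102, so the numbers were not taken as pairs; every combined array correlated best with its own number, which is a hint from the data alone. With the replicate block 1 probe set passed and 257 had an unadjusted p under 0.05. On values as deposited 60.3% of these were higher, against 53.3%. No detection calls were used, so dim probe sets carry the weakest values.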
